A study of Mus musculus with 8 samples.

Results

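The splicing regulators described here are the RNA-binding proteins of the hnRNP, SR, Tra2, RBM, RBFOX, MBNL, CELF and YBX families, together with the SF3A, SF3B and U2AF proteins and the PRPF factors of the spliceosome. They were taken by name from a table of 33514 gene rows: 126 rows carried a name of these families, and the 78 rows with a sum of at least 40 counts over the 8 libraries are the members. The rule uses only the names and that sum, but it was set with earlier results of these data known. RNA was sequenced from cultured adult mouse cardiomyocytes (strain C57BL/6), the contractile cells of the heart. Of the 8 libraries, 4 came from cells transfected with an siRNA targeting Hoxa5 (siHoxa5), which encodes a homeodomain transcription factor, and 4 from cells transfected with a negative control siRNA (siN). Every library received phenylephrine, an alpha1-adrenergic agonist that induces hypertrophic growth, at 100 µM for 24 h, beginning 24 h after transfection. The question put to the regulators is how far their RNA levels differ between siHoxa5 and siN in phenylephrine-treated cells. Cells without phenylephrine were not analysed here. Whether the 4 libraries of a group are separate animals, separate cultures or repeats of one preparation is not in the labels. All p-values therefore rest on the spread between these libraries, which may be technical. In the fits the spread of a row is estimated partly from other rows.

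Splicing removes introns from a primary transcript, and the choice of exons is set largely by proteins that bind the RNA near splice sites. SR proteins usually promote the use of an exon to which they bind, and many hnRNP proteins repress it. The RBFOX, MBNL and CELF families control exon choices that change as heart muscle matures, and the SF3A, SF3B, U2AF and PRPF proteins belong to or help assemble the spliceosome itself. The counts here are summed over each gene. They measure how much RNA a regulator's gene gave and not how any transcript was spliced.

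The libraries held 560190 to 619942 counts in siHoxa5 and 635825 to 658192 in siN. HOXA5, the target, had 9 counts over the siHoxa5 libraries and 8 over the siN libraries, which as counts per total is 1.23 times as high (exact 95% interval 0.421 to 3.66), an interval that covers counting error only. The exact two-sided permutation test of its counts per unscaled library total gave p = 0.657 (n = 4 and 4). CPM below means counts scaled to a common library size by TMM, which corrects for composition, unless the unscaled total is named. A fall of HOXA5 was not detectable at this depth, and every direction given here is that of the libraries labelled siHoxa5. On the first principal component of all tested rows siHoxa5 libraries 2 and 4 (-10.8 and -11.0) lay apart from siHoxa5 libraries 1 and 3 (-2.74 and -4.69). The siN libraries had positive values there, up to 7.77, so siHoxa5 libraries 2 and 4 were those farthest from siN. They also had the 2 lowest totals. On the second component siHoxa5 library 4 (-13.4) lay far from siHoxa5 library 2 (8.3), and siHoxa5 libraries 1 and 3 were at 5.55 and 3.35. Fits without siHoxa5 libraries 2 and 4 thus leave out those farthest from siN on the first component, and not a pair alike on both. Of 24 listed cardiomyocyte markers 15 had a count, and 9, among them MYL2, TNNI3 and MB, were at 0 in every library. The markers together took 9.29% to 9.69% of counts in siHoxa5 libraries and 7.48% to 7.95% in siN libraries. Fibroblast markers (11 of 14 with a count; LUM, TCF21 and DPT at 0) took 1.35% to 1.61% in siHoxa5 and 1.36% to 1.43% in siN. Endothelial markers (5 of 12 with a count; PECAM1, CDH5 and VWF at 0) reached 0.0052% in siHoxa5 and 0.0055% in siN, smooth muscle and pericyte markers (5 of 10) 0.00292% and 0.00306%, and leukocyte markers (2 of 12; CD68 and ADGRE1 at 0) 0.000179% and 0.000156%. The part of the cardiomyocyte marker difference in the results below was not tested, and in such bulk RNA fewer cells of a type and less RNA per cell cannot be told apart.

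Of the 78 members 72 passed the filter on low counts and were tested. At a Benjamini-Hochberg adjusted p under 0.05 over all 3020 tested rows (quasi-likelihood test of edgeR) 5 members were higher in siHoxa5 and 0 were lower. The 5 were HNRNPH1, HNRNPD, SRSF6, RBFOX2 and CELF2, and each rose by 0.15 to 0.25 on the log2 scale. They are 6.94% of the tested members, beside a background of 3.74% of all tested rows called higher and 3.38% called lower. In either direction the background was 7.12%, so the share of members called is not in itself a result about them. Unadjusted p-values were under 0.05 for 17 tested members, 0 of them among the YBX and RBM families. They made up 23.6% of the tested members, against 19.6% of all tested rows. DESeq2 called 3 members higher (HNRNPD, HNRNPH1 and CELF2) and 0 lower, when it called 1.99% of all tested rows higher and 1.95% lower.

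The promoters of the called genes are shown first because these are the members past the threshold and because the siRNA was aimed at a factor that binds DNA. Of the 5 genes, 4 had entries in the RefSeq promoter table (GRCm38.p6). Each sequence is the stretch of the 250 bases before the most upstream RefSeq start that overlaps no annotated exon, and capitals mark TAAT on either strand, the core that homeodomains commonly contact.
HNRNPH1, chr11:50376740-50376989, plus strand: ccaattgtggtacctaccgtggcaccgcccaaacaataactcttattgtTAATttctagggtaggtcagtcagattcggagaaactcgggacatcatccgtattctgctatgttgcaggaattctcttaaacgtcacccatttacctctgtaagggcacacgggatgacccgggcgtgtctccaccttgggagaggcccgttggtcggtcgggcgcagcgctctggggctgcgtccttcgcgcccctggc
HNRNPD, chr5:99978939-99979060, minus strand: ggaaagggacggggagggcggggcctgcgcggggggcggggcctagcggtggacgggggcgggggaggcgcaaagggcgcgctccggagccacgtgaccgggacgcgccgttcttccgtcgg
SRSF6, chr2:162931258-162931507, plus strand: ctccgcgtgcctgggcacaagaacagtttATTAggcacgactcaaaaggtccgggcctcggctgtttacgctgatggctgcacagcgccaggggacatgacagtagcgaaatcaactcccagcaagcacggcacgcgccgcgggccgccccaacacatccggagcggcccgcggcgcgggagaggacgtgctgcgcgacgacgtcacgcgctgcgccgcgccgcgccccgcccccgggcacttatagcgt
CELF2, chr2:7396199-7396448, minus strand: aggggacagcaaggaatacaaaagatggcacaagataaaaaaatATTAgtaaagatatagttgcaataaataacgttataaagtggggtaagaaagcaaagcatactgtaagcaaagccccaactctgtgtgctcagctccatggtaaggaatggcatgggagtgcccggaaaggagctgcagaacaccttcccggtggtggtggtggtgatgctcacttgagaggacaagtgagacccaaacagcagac
TAAT occurred 1 time in the window of each of HNRNPH1, SRSF6 and CELF2 and 0 times in that of HNRNPD. The other starts differ: in the 250 bases before each, TAAT occurred 1 to 5 times for HNRNPH1 and 0 to 3 times for CELF2. It was present in 54.9% of all 32851 windows of 250 bases in the table and in 39.2% of the 97 windows of the 68 members that have an entry. TGATNNAT, a longer motif of HOX proteins with their PBX partners, was also searched on both strands. It was in 0 of the 4 windows shown, in 7.68% of all windows and in 5.15% of the members' windows. The letters of such a window are a description and not a site of binding, and HNRNPH1 and CELF2 each have 5 RefSeq starts, of which the most upstream is shown. The window of CELF2 lies inside the longer gene that GENCODE M21 annotates.

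The hnRNP proteins coat nascent transcripts, and the family was the largest among the members, with 21 rows that held 46.2% of the members' counts. Of 20 tested, 2 rose, 0 fell and 18 did not pass, with a median log2 fold change of 0.05. HNRNPD, also called AUF1, binds AU-rich elements and controls mRNA decay; its mouse gene lies on chromosome 5 (GRCm38, 99955935 to 99978938, minus strand, GENCODE M21). HNRNPD had 1730.5, 1562, 1668 and 1832 CPM in siHoxa5 libraries 1 to 4, against 1545, 1394, 1439 and 1425 CPM in siN libraries 1 to 4. Every siHoxa5 library lay above every siN library, although siHoxa5 library 2 exceeded siN library 1 only slightly. This gave a log2 fold change of 0.23 with SE 0.06 and an adjusted p of 0.00239 (edgeR). Among the 5 called members it was the only one called under all 18 other settings tried, with values of 0.17 to 0.27.

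HNRNPH1, which binds runs of G in pre-mRNA, lies on mouse chromosome 11 (50376990 to 50386528, plus strand). It had 4395, 4243, 4448 and 4344 CPM in siHoxa5 libraries, against 4011, 3997, 3843 and 3863 CPM in siN libraries. The groups did not overlap and each was narrow, with SDs of 87.6 CPM in siHoxa5 and 87.8 CPM in siN around means of 4358 and 3928 CPM (n = 4 each). HNRNPH1 rose by 0.15 on the log2 scale with SE 0.05 and an edgeR adjusted p of 0.0303. It lost its call without the filter on low counts (0.16, adjusted p = 0.0767), without siHoxa5 library 3 (0.14, adjusted p = 0.0985) and without siN library 2, 3 or 4 (adjusted p = 0.064, 0.129 and 0.119). Its relatives HNRNPH2, HNRNPH3 and HNRNPF had log2 fold changes of -0.03, -0.04 and -0.03, none past the threshold.

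None of the other 18 tested hnRNP genes passed the threshold. HNRNPA2B1 and HNRNPA3, close relatives that bind similar RNA elements, averaged 6039 ± 323 and 5822 ± 302 CPM in siHoxa5 and 5689.7 ± 272 and 6209.7 ± 168 CPM in siN (SD, n = 4 each). Their log2 fold changes were 0.09 and -0.09 (SE 0.05 each, edgeR adjusted p = 0.287 and 0.236). HNRNPA2B1 was 0.05 without siHoxa5 library 4, 0.06 without siN library 1 and 0.15, past the threshold, after removal of trends on length and GC. Without siHoxa5 library 4, HNRNPA3 passed at -0.13 (adjusted p = 0.0356). HNRNPDL, the nearest relative of HNRNPD, had 0.17 (SE 0.06, adjusted p = 0.086), and 0.22 with adjusted p = 0.0179 without siHoxa5 library 1, but 0.10 without siHoxa5 libraries 2 and 4. HNRNPU, a nuclear scaffold protein, had 2577, 2695, 2631 and 2718 CPM in siHoxa5 libraries and 2454, 2435, 2389 and 2453 CPM in siN libraries. Its groups did not overlap, and the difference of 0.13 (log2, SE 0.05, adjusted p = 0.116) did not pass. HNRNPA1 had 0.07, HNRNPK 0.03, HNRNPC -0.08 and HNRNPL 0.04. The row HNRNPA1P48, which carries the name of a human HNRNPA1 pseudogene and has no mouse namesake, held 3516 counts and had 0.10; reads of HNRNPA1 and such copies may have been divided between rows, so values of these rows are uncertain.

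**Figure D1:**
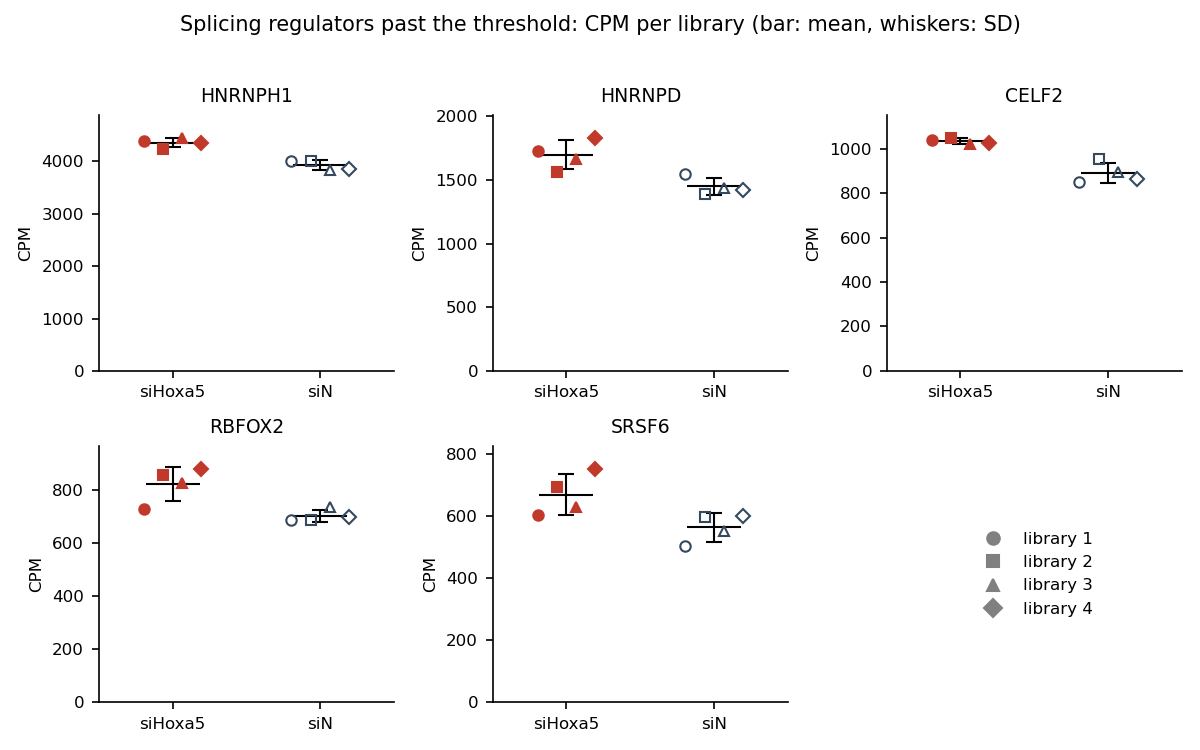
CPM (vertical axis, from 0) in each siHoxa5 library (left, filled) and siN library (right, open) for the 5 splicing regulators past the threshold; horizontal lines are means and whiskers SDs, n = 4. HNRNPH1, HNRNPD, CELF2 and SRSF6 do not overlap between groups, while RBFOX2 in siHoxa5 library 1 (731 CPM) lies below siN library 3 (737 CPM).

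SR proteins carry RS-rich domains and define exons; this family and the related Tra2 genes gave 12 members, all tested, of which 1 rose, 0 fell and 11 did not pass. Their median log2 fold change was 0.11 and 9 of the 12 values were above 0, against a median of -0.00 over all tested rows. Of all 3020 tested rows 1492 were above 0, and of 76 tested splicing genes outside these families 48 were. SRSF6, on mouse chromosome 2 (162931528 to 162937121, plus strand), had 602, 694, 627 and 749 CPM in siHoxa5 libraries, against 502, 597, 551 and 599.7 CPM in siN libraries. The groups were barely separate: siHoxa5 library 1 stood just above siN library 4, and the 2 highest values came from siHoxa5 libraries 2 and 4. SRSF6 rose by 0.25 on the log2 scale with SE 0.07 and an edgeR adjusted p of 0.0239. Without siHoxa5 libraries 2 and 4 it was 0.13 (adjusted p = 0.44). Leaving out siHoxa5 library 2 or 4 or siN library 1 or 3 alone also ended the call (adjusted p = 0.0738, 0.138, 0.166 and 0.0839), as did DESeq2 (0.0887).

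SRSF1, the best studied SR protein and one needed for postnatal splicing changes in mouse heart, averaged 2367 ± 174 CPM in siHoxa5 and 2165 ± 49.8 CPM in siN (SD, n = 4 each). The difference of 0.13 (log2, SE 0.05) did not pass (edgeR adjusted p = 0.128), and it was 0.08 without siHoxa5 library 2. SRSF7, which shuttles between nucleus and cytoplasm, had 0.18 (SE 0.09, adjusted p = 0.214), while SRSF2, the speckle protein SC35, had -0.02 (SE 0.05, adjusted p = 0.906). SRSF3 and SRSF5 each had 0.11, with groups that did not overlap and adjusted p = 0.296 and 0.231. TRA2A and TRA2B, paired activators of exon inclusion, had 0.11 and -0.10, neither past the threshold. Many SR and hnRNP genes hold exons whose inclusion sends the transcript to decay, and counts per gene cannot tell such forms from productive ones.

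The RBFOX, MBNL and CELF families control exon choice in muscle. Of their 6 tested members RBFOX2 and CELF2 rose, beside 3.74% of all tested rows called higher, and so few members allow no statement about the families. RBFOX2, an RBFOX protein active in heart, lies on mouse chromosome 15 (77078990 to 77307004, minus strand). It had 731, 857, 828 and 879 CPM in siHoxa5 libraries, against 689, 686, 737 and 699 CPM in siN libraries. Only siHoxa5 library 1 fell within the siN range. RBFOX2 rose by 0.23 on the log2 scale with SE 0.07 and an edgeR adjusted p of 0.0213, and had 0.16 (adjusted p = 0.245) without siHoxa5 libraries 2 and 4. It lost its call under 9 of the 18 other settings, among them DESeq2 (adjusted p = 0.0621), removal of trends on length and GC (0.0635), and leaving out siHoxa5 library 2, 3 or 4 or siN library 1, 2 or 4 alone (0.0536 to 0.0704). RBFOX1, its muscle and neuronal relative, had 11, 3, 1 and 2 counts in siHoxa5 libraries and 4, 12, 6 and 7 in siN libraries, too few to be tested.

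CELF proteins hold many exons in their fetal state in heart, and in the mouse heart their protein levels decline after birth as MBNL levels rise. CELF2, on mouse chromosome 2 (6539694 to 7509563, minus strand), had 1039.9, 1049, 1023 and 1027 CPM in siHoxa5 libraries, against 848, 953, 894 and 864 CPM in siN libraries. The siHoxa5 values spanned a narrow range (SD 12.1 CPM), all above the siN values (SD 46.0 CPM). That range is narrower than counting error at 573 to 646 counts per siHoxa5 library would usually give, so its narrowness is no measure of replication. CELF2 rose by 0.22 on the log2 scale with SE 0.06 and an edgeR adjusted p of 0.0136, and by 0.22 also without siHoxa5 libraries 2 and 4. Removal of trends on length and GC left 0.14 (adjusted p = 0.169), and the call was lost without siN library 1 or 4 (adjusted p = 0.0686 and 0.066). CELF1, the family member studied most in myotonic dystrophy, had 1904, 1996, 1983 and 2069 CPM in siHoxa5 libraries and 2100.4, 2157, 2129 and 2019.7 CPM in siN libraries, overlapping at siHoxa5 library 4. The CELF1 difference was -0.08 (log2, SE 0.05, adjusted p = 0.424), and -0.13 after removal of trends on length and GC. CELF4, with 194 counts in all, had -0.22 (SE 0.25), but -0.01 without siHoxa5 library 2, -0.05 without siN library 4 and 0.03 without siHoxa5 libraries 2 and 4.

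MBNL1, the muscleblind protein that is sequestered on repeat RNA in myotonic dystrophy, had 2125, 2045, 2086 and 2125 CPM in siHoxa5 libraries, against 1949, 1936, 1827 and 1826 CPM in siN libraries. The groups did not overlap, yet the difference of 0.15 (log2, SE 0.05) did not pass, with an edgeR adjusted p of 0.053. It passed with DESeq2-style size factors in edgeR (RLE, adjusted p = 0.0475), limma-voom (0.0483) and a minimum count of 20 (0.0384), without siHoxa5 library 2 (0.0418) and without siHoxa5 libraries 2 and 4 (0.17, adjusted p = 0.0208). It did not pass with DESeq2 (0.0745), without the filter on low counts (0.134), or without any other single library (0.0561 to 0.181). After removal of trends on length and GC it was 0.11 (adjusted p = 0.265). MBNL2, its relative, had 0.10 (SE 0.06, adjusted p = 0.334), and 0.03 without siHoxa5 libraries 2 and 4. Within a library the ratio of CELF2 to CELF1 CPM was 0.546, 0.526, 0.516 and 0.497 in siHoxa5 and 0.404, 0.442, 0.42 and 0.428 in siN. The ratio of MBNL1 to CELF1 CPM was 1.12, 1.02, 1.05 and 1.03 in siHoxa5 and 0.928, 0.898, 0.859 and 0.904 in siN. Neither ratio overlapped between the groups, whereas MBNL2 over MBNL1, at 0.626 ± 0.0454 in siHoxa5 and 0.648 ± 0.0456 in siN (SD, n = 4 each), did; the ratios were formed after the values were seen and are not tested.

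**Figure D2:**
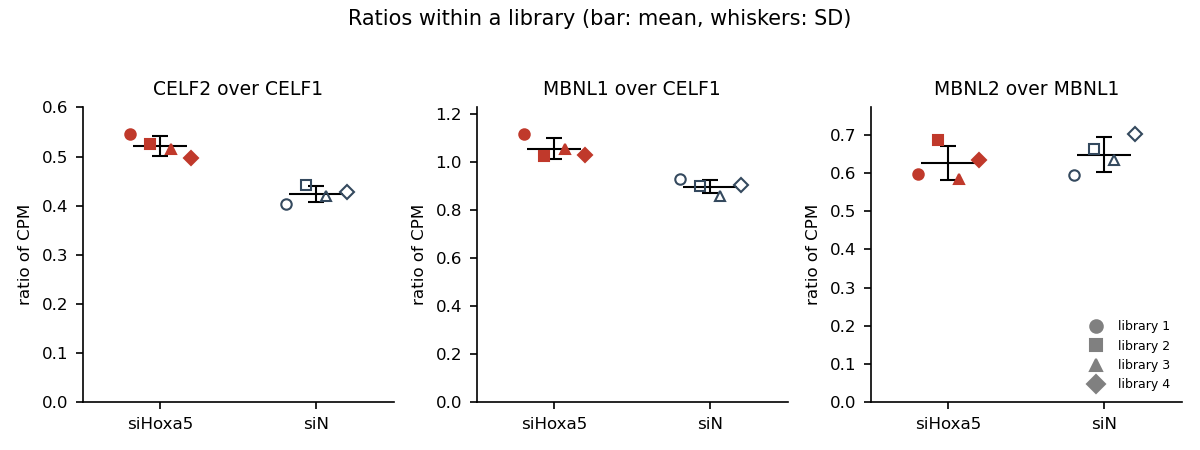
Ratio of CPM values within each library (vertical axis, from 0) for CELF2 over CELF1, MBNL1 over CELF1 and MBNL2 over MBNL1, siHoxa5 libraries left and siN libraries right; horizontal lines are means and whiskers SDs, n = 4. The first pair of ratios is separate between groups, with means of 0.521 against 0.423 and 1.05 against 0.897, and the third overlaps.

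The SF3A and SF3B proteins form the U2 particle that reads the branch site, and U2AF reads the end of the intron; none of the 7 tested members of these families passed. U2AF2, the large U2AF subunit that binds the polypyrimidine tract, had 435, 541, 471 and 728 CPM in siHoxa5 libraries, against 419, 483, 438 and 434 CPM in siN libraries. The value of siHoxa5 library 4 stood well above the rest. On the log2 scale the difference was 0.29 with SE 0.13 (edgeR adjusted p = 0.221). It was 0.12 (adjusted p = 0.485) without siHoxa5 library 4 and 0.04 (adjusted p = 0.899) without siHoxa5 libraries 2 and 4. Without siHoxa5 library 1 it was 0.38 and past the threshold (adjusted p = 0.0002), with 541, 471 and 728 CPM left in siHoxa5. It also passed without the filter on low counts (0.30, adjusted p = 0.0144). Such adjusted p-values rest on a spread estimated partly from other rows and not on the U2AF2 values alone. SF3B1, the branch site protein mutated in blood cancers, averaged 1946 ± 111 CPM in siHoxa5 and 1833 ± 72.2 CPM in siN (SD, n = 4 each), a difference of 0.09 (log2, SE 0.05, adjusted p = 0.382) that was 0.05 without siHoxa5 library 2. SF3B2, with 112 counts in all, had the most negative value of all members at -0.76 (SE 0.33, adjusted p = 0.165).

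PRPF proteins take part in several spliceosome particles, and 0 of 9 tested passed, with a median log2 fold change of 0.00. PRPF19, the ubiquitin ligase at the core of the Prp19 complex, had 127, 80.9, 124 and 87.9 CPM in siHoxa5 libraries and 158, 122, 132 and 149.6 CPM in siN libraries. The siHoxa5 libraries 2 and 4 were the low ones, while siHoxa5 libraries 1 and 3 lay within the siN range. The difference of -0.41 (log2, SE 0.15) had an edgeR adjusted p of 0.0663, and was -0.16 (adjusted p = 0.718) without siHoxa5 libraries 2 and 4, and -0.51 with adjusted p = 0.0193 without siHoxa5 library 1. PRPF39, a U1 factor, had 0.19 (SE 0.09) and PRPF4, of the U4/U6 particle, 0.48 (SE 0.24), with adjusted p = 0.214 and 0.255. PRPF39 was 0.10 without siHoxa5 library 2, and PRPF4 was 0.30 without siHoxa5 library 4. PRPF8, the large protein at the catalytic centre, had -0.00 (SE 0.10) and the kinase PRPF4B 0.14 (SE 0.09), which was 0.06 without siHoxa5 libraries 2 and 4 and 0.07 after removal of trends on length and GC.

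RBM proteins share an RNA recognition motif and little else, and 0 of 16 tested passed (median log2 fold change -0.04). RBM39, a U2AF-related coactivator, averaged 686 ± 67.3 CPM in siHoxa5 and 625 ± 14.5 CPM in siN (SD, n = 4 each), a difference of 0.13 (log2, SE 0.07; edgeR adjusted p of 0.289) that was 0.08 without siHoxa5 library 4. RBM25, tied to splicing of the cardiac sodium channel transcript in human heart failure, averaged 760.1 ± 29.5 CPM in siHoxa5 and 822 ± 48.7 CPM in siN, a difference of -0.11 (log2, SE 0.07, adjusted p = 0.357) that was -0.07 without siN library 2. RBM3, induced by cold, had 0.28 (SE 0.15, adjusted p = 0.308), with 0.45 without siN library 2 and 0.17 without siN library 3. RBM24, which promotes muscle exons, had 6, 5, 6 and 3 counts in siHoxa5 libraries and 9, 6, 5 and 6 in siN libraries, and was not tested. RBM20, the regulator of titin splicing whose mutations cause cardiomyopathy, was listed at 0 in every library and is no member.

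YBX proteins have a cold shock domain and package mRNA. YBX1 was the most abundant member, with 71744 counts or 19.9% of the members' total. Per kilobase of the longest coding mouse transcript, which may not be the transcript model behind the counts, its level was 8366 CPM in siHoxa5 and 9378 CPM in siN, above that of HNRNPA2B1, the next, at 3495 CPM in siHoxa5 and 3293 CPM in siN. YBX1 had 12075, 11871, 13987 and 16549.6 CPM in siHoxa5 libraries, against 14727, 16405, 15697 and 14238 CPM in siN libraries. The siHoxa5 values covered a wide range that took in the siN values at its upper end. YBX1 differed by -0.16 on the log2 scale with SE 0.12, short of the threshold (edgeR adjusted p = 0.52). The value was -0.27 (adjusted p = 3.33e-10) without siHoxa5 library 4, -0.18 (0.0159) with limma-voom and -0.22 (adjusted p = 0.194) without siHoxa5 libraries 2 and 4. It was smaller, at -0.11 (adjusted p = 0.723) without siHoxa5 library 1, -0.10 (0.751) without siHoxa5 library 2 and -0.07 (0.833) after removal of trends on length and GC. YBX3, at 151 ± 17.1 CPM in siHoxa5 and 175 ± 20.6 CPM in siN (SD, n = 4 each), had -0.21 (SE 0.13, adjusted p = 0.363), and -0.12 both without siHoxa5 libraries 2 and 4 and after removal of trends on length and GC.

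**Figure D3:**
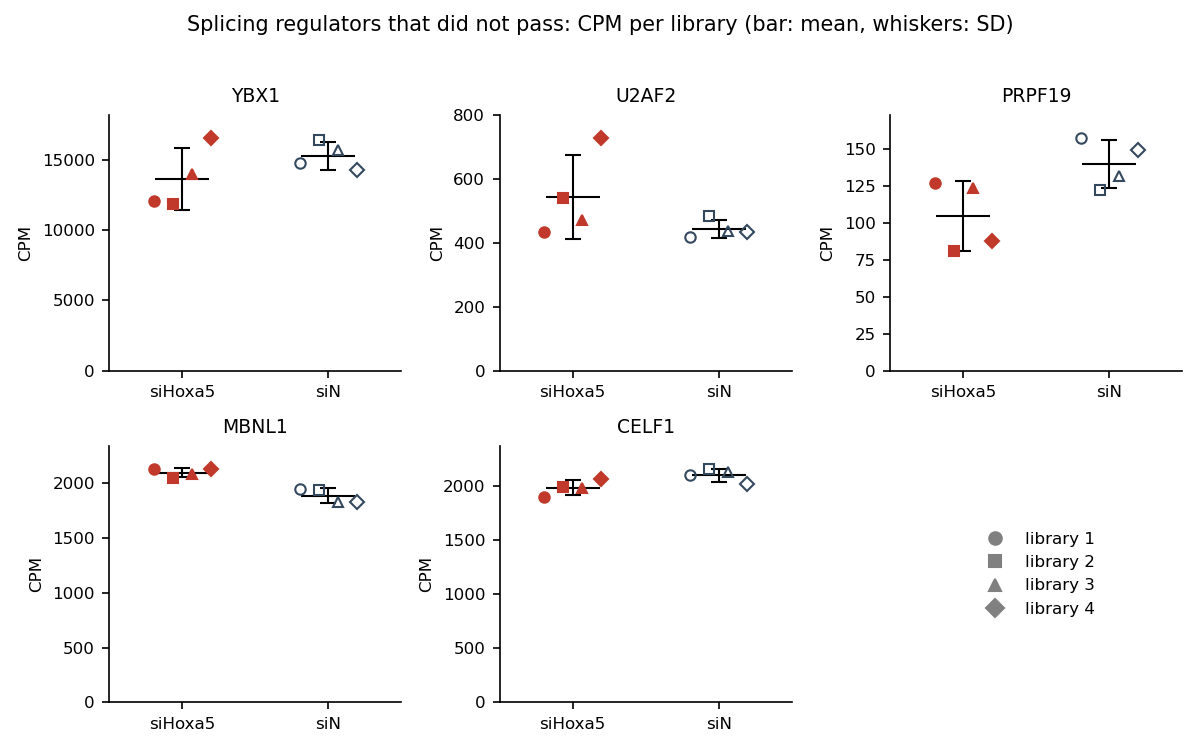
CPM (vertical axis, from 0) per library for YBX1, U2AF2, PRPF19, MBNL1 and CELF1, which did not pass the threshold; siHoxa5 libraries left, siN libraries right, horizontal lines are means and whiskers SDs, n = 4. YBX1 and U2AF2 are highest in siHoxa5 library 4, PRPF19 is lowest in siHoxa5 libraries 2 and 4, and MBNL1 has separate groups.

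Taking the members as one list, the changes were small. The median log2 fold change of the 72 was 0.04, against -0.00 over all tested rows, with 41 values above 0 and 31 below. Of all 3020 tested rows 1492 were above 0 and 1528 below. The median absolute value was 0.11 for the members and 0.16 for all tested rows, and 79.2% of members and 59.8% of all rows lay within 0.2 of no change. The members' median SE of 0.09 was also below the 0.17 of all tested rows. CPM values of the groups did not overlap for 8 of the 72 members, all 8 higher in siHoxa5; the background was 6.16% of tested rows higher and 5.76% lower. The 8 were HNRNPD, HNRNPH1, HNRNPU, SRSF3, SRSF5, SRSF6, MBNL1 and CELF2. Without siHoxa5 libraries 2 and 4, 4 members were called higher and 0 lower: HNRNPD, HNRNPH1, CELF2 and MBNL1, when 2.11% of all rows tested were called higher and 2.33% lower. Without siHoxa5 library 4 alone, 3 were called higher and 2, YBX1 and HNRNPA3, lower, when 3.19% of all rows tested were called higher and 3.58% lower.

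**Figure D4:**
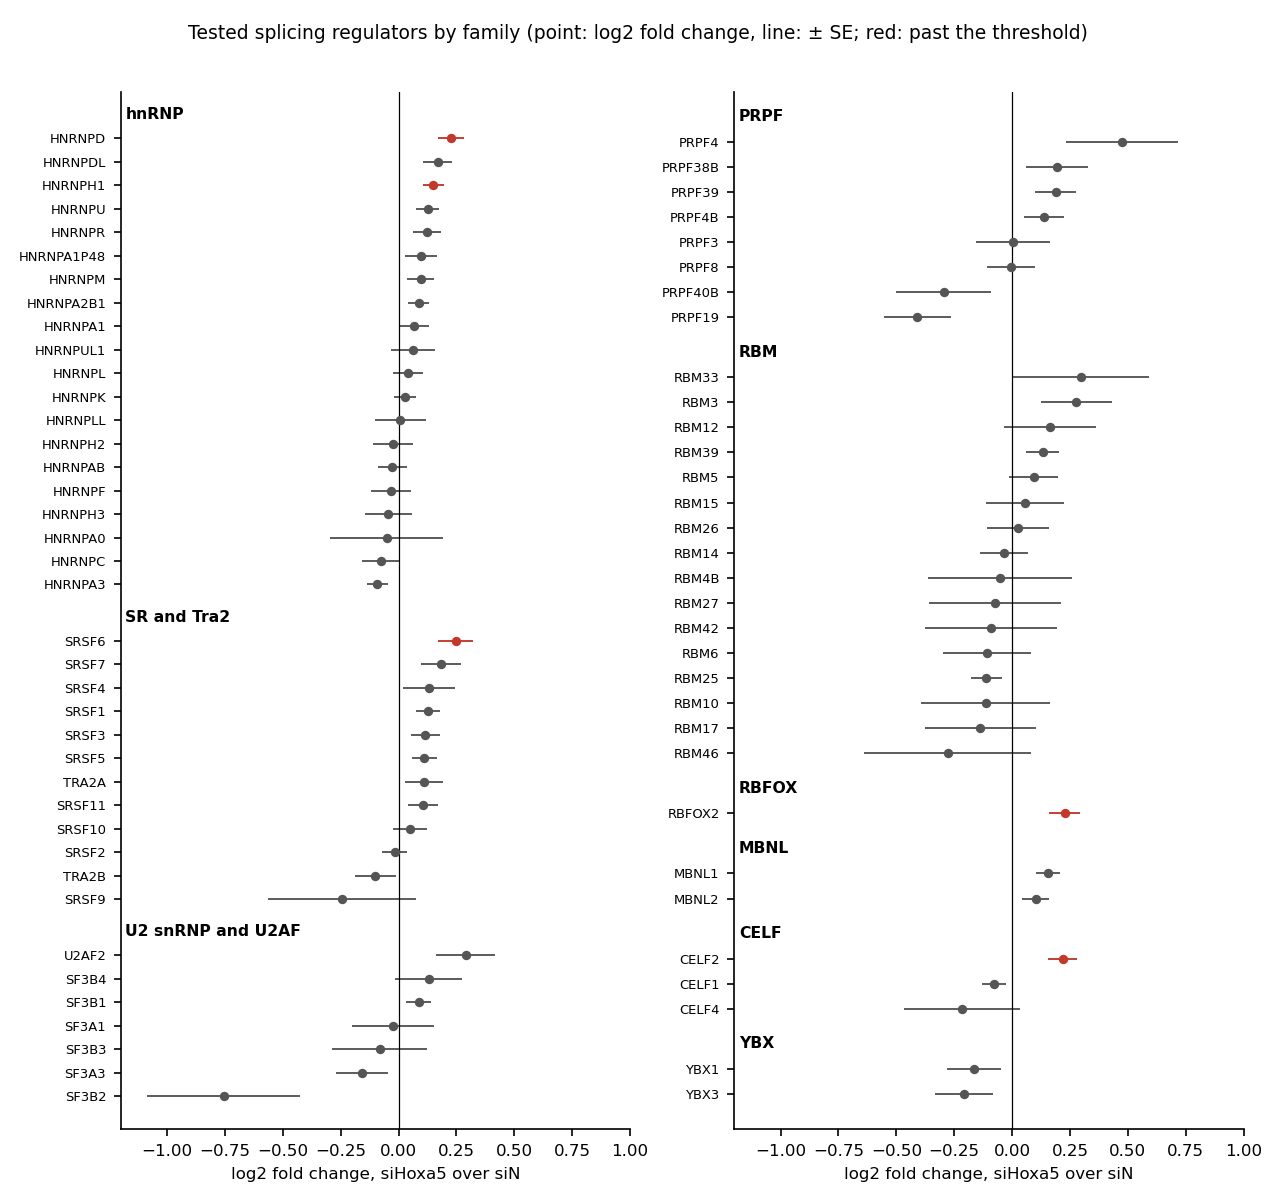
Log2 fold change of siHoxa5 over siN (horizontal axis) with its SE for 71 of the 72 tested splicing regulators, grouped by family; red points passed the threshold. The 5 called members lie between 0.15 and 0.25, and the widest lines belong to members with few counts such as SF3B2 (-0.76, SE 0.33).

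Summed over the members, CPM was 73420.5 ± 3830 in siHoxa5 and 72419 ± 1520.1 in siN (SD, n = 4 each). These sums overlapped, at 70149 to 78902 CPM in siHoxa5 libraries and 70962 to 74411 CPM in siN libraries. Leaving out YBX1 the sums were 58074, 59808, 58966 and 62352 CPM in siHoxa5 libraries and 56724.5 to 58006 CPM in siN libraries. Every siHoxa5 sum without YBX1 lay above every siN sum, though siHoxa5 library 1 stood barely above siN library 2. YBX1 is the most abundant member and had a log2 fold change of -0.16, and the groups are separate only when it is left out. No matching sum of other rows was formed, and the difference was not tested. SR and Tra2 genes summed to 10410.3 ± 417 CPM in siHoxa5 and 9774 ± 143 CPM in siN. Among tested members, 31 had their highest siHoxa5 value in library 4 and 22 in library 2, against 11 in library 3 and 8 in library 1; the part of this in the calls was not tested beyond the fits without these libraries. Across tested members with a mouse transcript, which are genes and not replicates, Spearman's rho between log2 fold change and transcript length was 0.229 (n = 71), and that with GC content was -0.321. Over all tested rows these were 0.216 and -0.0987 (n = 2898).

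**Figure D5:**
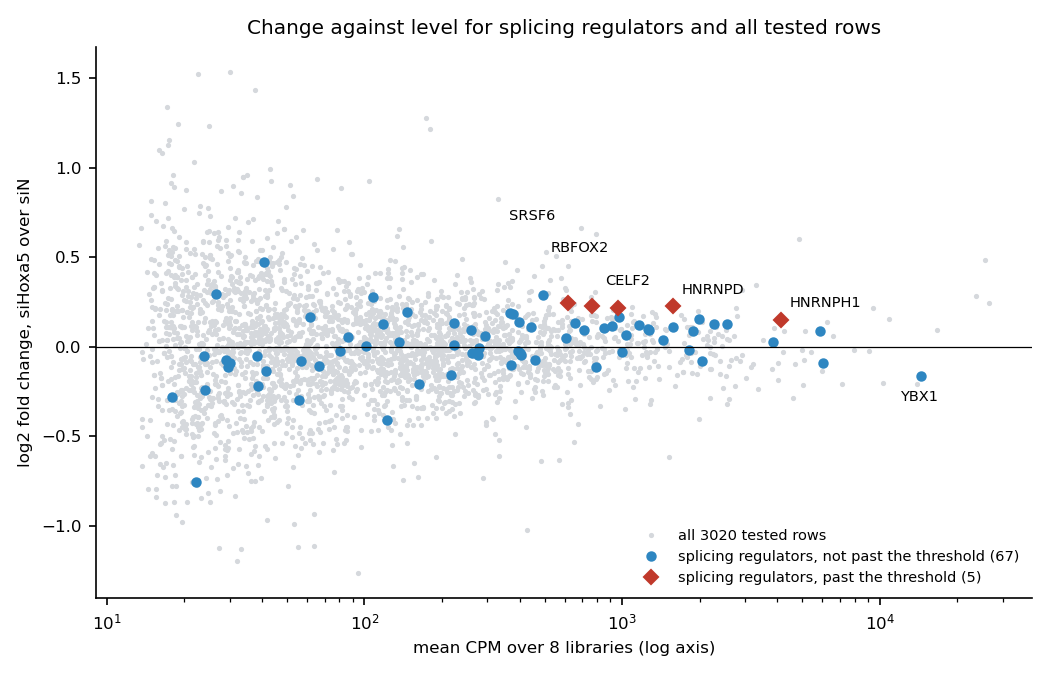
Log2 fold change of siHoxa5 over siN (vertical axis) against mean CPM over the 8 libraries (horizontal log axis) for all 3020 tested rows (grey), the 67 splicing regulators not past the threshold (blue) and the 5 past it (red diamonds). From left to right the called members are SRSF6, RBFOX2, CELF2, HNRNPD and HNRNPH1, among rows of moderate to high level, and YBX1 lies farthest to the right of the members.

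Splicing genes outside these families were taken from a list of 151, of which 126 had a count and 76 were tested. Among the tested, 3 genes rose and 1 fell, 72 stayed short of the threshold, and the median log2 fold change was 0.06. Those 4 of 76 stand beside a background of 7.12% of all tested rows, so the count is not a result about the list. PNN (pinin), a partner of SR proteins at the exon junction, averaged 999 ± 48.7 CPM in siHoxa5 and 868 ± 24.8 CPM in siN (SD, n = 4 each; log2 fold change 0.21, SE 0.06, edgeR adjusted p = 0.0257). EWSR1, an RNA-binding protein of the FET family, had 1653, 1696, 1793 and 2062 CPM in siHoxa5 libraries and 1501, 1609, 1723 and 1532 CPM in siN libraries. It rose by 0.18 (SE 0.06, adjusted p = 0.0336), with siHoxa5 libraries 1 and 2 below siN library 3. NOVA1, a splicing factor best known from neurons, had 83.7, 113, 108 and 113 CPM in siHoxa5 libraries and 62.2, 89.3, 63.7 and 75.5 CPM in siN libraries. It rose by 0.52 (SE 0.17, adjusted p = 0.0385), with siHoxa5 library 1 below siN library 2. DHX15, the helicase that takes apart spent spliceosomes, fell to 2276 ± 44.7 CPM in siHoxa5, against 2528 ± 54.5 CPM in siN (-0.15, SE 0.05, adjusted p = 0.0471). DESeq2 called 0 of the 76, when it called 3.94% of all tested rows. By edgeR, unadjusted p-values were under 0.05 for 17 of the 76, or 22.4%, beside 19.6% of all tested rows.

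The sum of 40 counts set the edge of the membership. Just inside it were RBFOX1, RBM24 and RBM41 with 46 counts each and SF3B6 with 50, and just outside RBM18 with 36 and RBM38 with 35. The 6 members that did not pass the filter were HNRNPA1L2, CELF3, SF3B6, RBFOX1, RBM24 and RBM41; the lowest that did were RBM46 with 89 counts and SF3B2 with 112. Of the 48 named rows below the sum, 37 had 0 counts in all libraries, and 23 of those 37 have a mouse gene of the same name. They include genes that every cell needs for splicing, such as PRPF31 and SF3B5, while U2AF1 had 1 count and PRPF6 had 3 in all, so a row at 0 here is a row without counts and not evidence that the gene is off. A count of 0 in a library allows up to 3 counts, 4.56 to 5.36 CPM of the unscaled total.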

How the data were processed

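Gene-level RNA-seq counts of 8 libraries, 4 siHoxa5 and 4 siN by sample title, were used. The deposited values are estimated counts by gene symbol, without normalization, and 4 rows hold values that are not whole. Tools named in the submitters' processing notes are STAR 2.6.1b (an aligner), HTSeq (a read counter), FastQC 0.11.8 and R 3.5.3, and the build is mm10. Annotation, strand setting and handling of shared reads: not given in the sources used here. All 8 library files were identical to the series table. Symbols are spelled as human genes, and 76 of the 78 members have a mouse gene of that name in GENCODE M21, from which coordinates and transcript lengths were taken. The rows follow a list of human gene names. Some are human loci without a mouse namesake, such as HNRNPA1P48 (3516 counts) and HNRNPCL1 (0 counts). Several abundant mouse heart genes were at 0. Which genome and annotation gave the counts could not be settled. Mouse coordinates, promoters, levels per kilobase and trends on length and GC therefore rest on an assumed match by name.

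Values were rounded and fitted with edgeR 4.0.16 (R 4.3.3; robust quasi-likelihood, TMM, filterByExpr with minimum count 10 and minimum total 15, group as the only term, threshold 0.05 after Benjamini-Hochberg adjustment). The filter kept 3020 rows with 98.6% of counts. The SE was obtained from the fold change and its F statistic. DESeq2 1.42.0, limma 3.58.1 (voom), other scalings and filters, a replicate block, fits without libraries and the removal of trends on length and GC content (mgcv 1.9.3) were alternatives. The fit was tested on simulated counts with known changes. It recovered 30% of 1.25-fold, 59.6% of 1.5-fold, 83.7% of 2-fold and 100% of 4-fold changes, with 8 false calls among 140. The simulation gave both groups the same spread. In the data, pairs of siHoxa5 libraries differed more (chi-square per degree of freedom 1.47 to 2.57) than pairs of siN libraries (1.37 to 1.55). False calls under such unequal spread were not simulated. Changes as small as those of the called members were not simulated. The named genes were all called members, up to 3 members of smallest p and the 2 of highest mean CPM per family, members known from muscle, the 2 tested and 2 untested members nearest the sum of 40, and other splicing genes called; further members named were chosen after their values were seen. Members, lists and rules were chosen with earlier results of these data known. The values of 1 tested member are not reported here.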

Additional observations from a re-analysis of the deposited data

Results flagged for a closer look

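In 3 of the 102 groups of 4 values examined (named genes, family sums and ratios), the highest or lowest library lay far from the other 3 by Dixon's 95% criterion, which chance meets in about 1 group in 20. SRSF7 had 370 CPM in siHoxa5 library 1, below the other siHoxa5 libraries at 411 to 415 CPM. CELF4 had 18.0 CPM in siHoxa5 library 2, from 10 counts, while the other siHoxa5 libraries had 39.4 to 43.4 CPM; without that library the log2 fold change of CELF4 was -0.01 in place of -0.22. RBM24 had 5.38 CPM in siHoxa5 library 4, from 3 counts, against 8.98 to 9.66 CPM in the other siHoxa5 libraries. CELF4 and RBM24 values rest on few counts, so counting error alone is wide there.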

How the results depend on the processing

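The median log2 fold change of the tested members stayed between 0.02 and 0.07 under all 18 alternatives. Without the filter on low counts the median over all 7926 rows was 0.09, above the members' 0.04. Under the other alternatives the median over all rows tested was -0.01 to 0.00. With DESeq2 119 genes were called in all (215 with edgeR), 3 members were higher, and 0 of the other splicing genes passed; these were also 0 without the filter on low counts. With limma-voom 1 member, YBX1, was lower, when 3.18% of all tested rows were called lower. With the replicate block 1 member, PRPF19, was lower, when 4.14% of all tested rows were called lower. Under the block 250 genes were called in all. Members called higher were 7 (MBNL1 and U2AF2 besides the 5), when 4.14% of all tested rows were called higher. Same-numbered libraries correlated at -0.0201 to 0.0662 and the other pairs at -0.0496 to 0.0433. Such values cannot tell whether the numbers pair the samples. Without siHoxa5 libraries 2 and 4, 143 genes in all and 2 of the other splicing genes were called. Leaving out single libraries gave 145 to 260 genes in all, 2 to 7 members higher, 0 to 2 lower and 0 to 5 other splicing genes. The cause of these shifts was not tested. Removal of trends on length and GC brought HNRNPA2B1 (0.15, adjusted p = 0.0328), HNRNPDL and SRSF5 past the threshold. RBFOX2 and CELF2 no longer passed, which left 6 members higher and 0 lower. Of all tested rows 3.28% were then called higher and 2.58% lower. Depth limits members with few counts, such as SF3B2 (SE 0.33), where small differences were not detectable. One alternative, the removal of YBX1 before scaling, was chosen after seeing the data and left 5 members higher and 0 lower. Of all rows tested 3.74% were then called higher and 3.35% lower.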
